A study of Homo sapiens with 6 samples.

Results

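The SLC25 family of mitochondrial carriers was followed in OVCAR3 cells, an established line derived from a high-grade serous ovarian cancer, after 6 h of exposure to THZ531. THZ531 is a covalent inhibitor of the transcriptional kinases CDK12 and CDK13. Every locus of the deposited expression table whose symbol reads SLC25A followed by a number was taken, which gave 48 genes among the 47577 loci of the table. The rule used names only and no measured value. Of these genes, 41 had 10 or more normalized reads in 3 or more libraries and were tested, and 38 of them had as many in all 6 libraries. None passed through the libraries of 1 group alone. The libraries were 3 from cells given the solvent DMSO and 3 from cells given 200 nM THZ531, all prepared from poly(A) RNA of parental OVCAR3 cultures without any genetic change named in the labels. One labelled field of these samples names the agent as THZ1, whereas the titles and the treatment field name THZ531, and the latter was followed.

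SLC25 proteins are small carriers with repeated pairs of membrane-spanning helices, and nearly all sit in the inner mitochondrial membrane, which is otherwise closed to charged metabolites. Each carrier moves a narrow set of substrates: ADP and ATP, phosphate, citric acid cycle intermediates, amino acids, nucleotides, cofactors or iron. They thereby connect the cytosol with oxidative phosphorylation, fatty acid oxidation, heme synthesis and mitochondrial DNA and RNA synthesis. They are encoded in the nucleus and made in the cytosol, and those of the inner membrane are typically imported through the TOM complex of the outer membrane, the small TIMM9 and TIMM10 chaperones and the TIMM22 complex.

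Reads counted on genes ranged from 53054048 to 70986130 per library, with the 3 THZ531 libraries at the lower end (53054048 to 57953296, against 60146046 to 70986130 in DMSO). The ovarian epithelial genes PAX8, WT1, KRT7, EPCAM, MUC16 and MSLN were all detected, with 602 to 736 normalized reads for WT1 and 126048 to 133953 for KRT7 in DMSO. PAX8, a transcription factor of this lineage, had 10645 to 11636 normalized reads in DMSO and 1161 to 1380 in THZ531. Markers of other cell types were low in all libraries except COL1A1, which had 942 to 1034 normalized reads in DMSO and 2057 to 2338 in THZ531. CD3E and ALB, which define T cells and hepatocytes, had no read in any library. The 8 such markers summed to 1226 to 1300 normalized reads in DMSO and to 2348 to 2593 in THZ531, and their part in the results was not tested.

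Sequence is shown first for the 2 members with the largest increases, the pyrimidine nucleotide carriers SLC25A33 and SLC25A36, and for the intron of SLC25A12 that holds a locus with the largest log2 change among the tested loci inside members. The promoters run from 250 bases before to 50 bases after the start of the RefSeq gene on GRCh38.p14, 5′ to 3′ on the plus strand, and capitals mark the palindromes CACGTG (the E-box bound by MYC and related factors) and TGACGTCA (the cyclic AMP response element, CRE). The SLC25A33 window is chr1:9539215-9539514 and the SLC25A36 window is chr3:140941586-140941885.
SLC25A33 promoter: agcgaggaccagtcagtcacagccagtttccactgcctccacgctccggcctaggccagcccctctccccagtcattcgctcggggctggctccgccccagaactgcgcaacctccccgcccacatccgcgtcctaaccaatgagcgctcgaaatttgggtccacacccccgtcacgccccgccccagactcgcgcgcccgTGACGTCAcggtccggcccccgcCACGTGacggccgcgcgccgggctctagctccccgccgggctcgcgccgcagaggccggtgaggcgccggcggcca
SLC25A36 promoter: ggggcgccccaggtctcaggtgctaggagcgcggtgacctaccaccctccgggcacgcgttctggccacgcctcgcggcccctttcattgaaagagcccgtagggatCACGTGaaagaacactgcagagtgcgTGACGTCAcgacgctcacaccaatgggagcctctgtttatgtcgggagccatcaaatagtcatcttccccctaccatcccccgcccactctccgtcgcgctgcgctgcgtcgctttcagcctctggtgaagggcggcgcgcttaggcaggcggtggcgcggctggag
The third sequence, chr2:171852050-171852135 of hg38, is read on the minus strand, the strand of SLC25A12, and its capitals mark AATAAA, the letters of the canonical polyadenylation signal.
SLC25A12 intron 4: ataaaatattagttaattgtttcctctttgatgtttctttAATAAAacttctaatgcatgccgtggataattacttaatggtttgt

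Against this set of 41 genes, THZ531 increased 4 and decreased 10 when a change of 1.5-fold or more with a limma p no higher than 0.05 before adjustment was required (log2 of the normalized value plus 1), and 27 were not called. The same thresholds called 15.7% of all 17568 tested loci as increased and 23.9% as decreased (39.5% in either direction), and among the loci with a symbol 13.3% and 23.7% (37% in either direction). The 14 called carriers, or 34.1% of 41, were thus near the share of the whole transcriptome. Fold changes on the log2 scale ranged from -3.50 for SLC25A34 to 0.92 for SLC25A33, with a median of -0.23 over the 41 genes and of -0.01 over all tested loci. Irrespective of size, 15 carriers were higher and 18 lower at a Benjamini-Hochberg adjusted p of at most 0.05 (limma, over all tested loci), where 34.6% and 34.1% of all loci were (68.6% in either direction). The 3 values of THZ531 did not overlap the 3 values of DMSO for 35 of the 41 genes, and this held for 71.7% of all tested loci. Since whole cultures were sequenced, fewer cells with a transcript and less of it per cell cannot be told apart.

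These calls are relative to the other genes of each library. Scaled to the same total of reads, the log2 changes of all loci shifted by -0.24, and the carriers split into 2 increased (SLC25A33 and SLC25A36) and 18 decreased, while the share of decreases among all called loci went from 60.4% to 77.3%. Scaled to the ribosomal protein gene RPL34, the reference (L34) of the study's qPCR assays, the shift was -0.49 and the split 0 to 21, with 87.5% of all called loci decreased. The upper quartile gave 3 and 10 with a shift of -0.02 and 62.2% of called loci decreased. All increases given below therefore hold relative to the deposited scaling, whereas the 10 decreases were called under each of the 4 scalings.

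**Figure D1:**
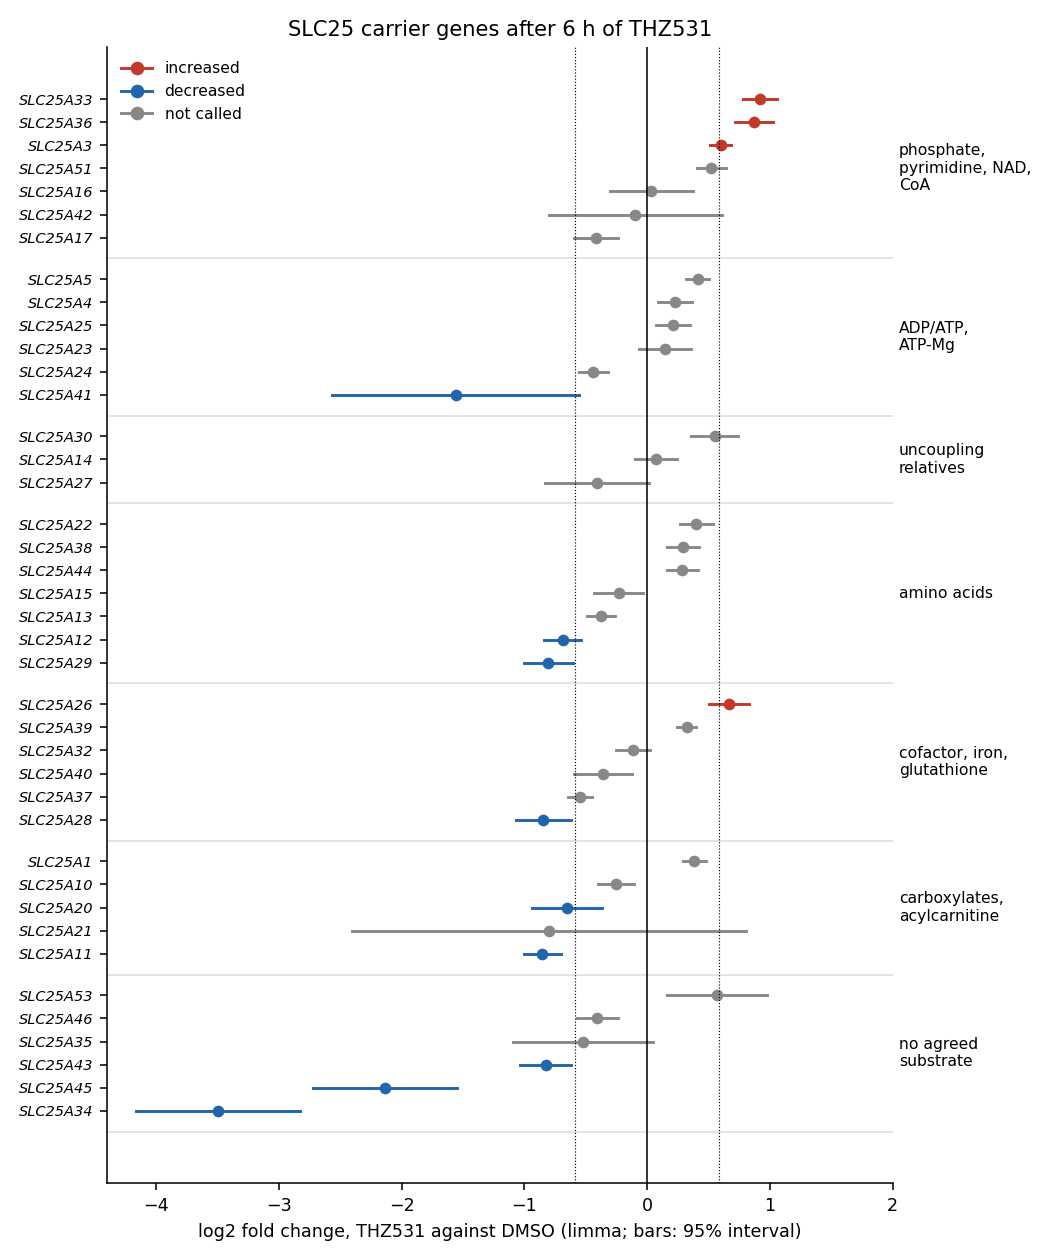
Log2 fold change of 40 of the 41 tested SLC25 genes, THZ531 against DMSO, with its 95% interval from limma (3 libraries per group), grouped by what the carriers transport. Red and blue points mark 4 increased and 9 decreased genes, gray points the 27 not called, and dotted lines a fold change of 1.5 in either direction. Of the 4 red points, 3 lie in the group of phosphate, pyrimidine nucleotide, NAD and CoA carriers. The groups were set with earlier results of these data known.

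The first group of carriers exchanges ADP, ATP and ATP-Mg, and its 6 tested genes held no increase and 1 decrease, with a median log2 fold change of 0.18. SLC25A5 (ANT2), the main ADP/ATP exchanger of dividing cells, had 22325, 21087 and 19446 normalized reads in the DMSO libraries and 28006, 27194 and 28361 in the THZ531 libraries. All THZ531 values were above all DMSO values, and the log2 fold change of 0.41 (SE 0.04, limma adjusted p = 3.8e-07) stayed under the 1.5-fold threshold. Its relative SLC25A4 (ANT1), the form typical of heart and muscle, gave 1241, 1082 and 1198 reads in DMSO and 1353, 1398 and 1369 in THZ531, a log2 fold change of 0.23 (limma adjusted p = 0.0056). SLC25A5 outweighed SLC25A4 by a ratio of 16.2 to 19.5 in DMSO and of 19.5 to 20.7 in THZ531, and these ranges overlap. SLC25A6 (ANT3) was listed at 0 in all libraries. It lies in the pseudoautosomal region shared by the X and Y chromosomes at the tip of their short arms, where all 12 loci with a symbol were listed at 0, so that its 0 says nothing of its level in these cells. SLC25A31, the testis form, was likewise listed at 0.

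The ATP-Mg/phosphate carriers adjust the adenine nucleotide pool of the matrix, and 3 of them respond to calcium through a regulatory domain. SLC25A41, the shorter form without that domain, fell from 30.2, 19.5 and 39.9 to 11.3, 5.68 and 11.4 reads, a log2 change of -1.56 (SE 0.47, limma adjusted p = 0.0083). It had the fewest reads among the called genes, and its 95% interval ran from -2.57 to -0.55. The calcium-regulated SLC25A24 went from 2266 ± 97.9 to 1671 ± 54.9 reads (SD, n = 3), a log2 change of -0.44 below the fold threshold. SLC25A25 and SLC25A23, its close relatives, had log2 changes of 0.21 and 0.14, and the latter was at 0.022 without DMSO replicate 3, at 0.089 without THZ531 replicate 1 and at 0.26 without DMSO replicate 1. The ratio of SLC25A25 to SLC25A24 was 0.487, 0.585 and 0.508 in DMSO and 0.783, 0.831 and 0.857 in THZ531. That ratio differed by 0.65 on the log2 scale without overlap, at p = 0.1 in a two-sided exact permutation test, the smallest value that 3 against 3 allows (0.233 adjusted over 7 pairs of related carriers). The locus of SLC25A25 overlaps SLC25A25-AS1 on the other strand, which fell from 587 to 255 reads (log2 change -1.20), and since the strand setting of the counting is not given in the sources used here, reads of this pair may not be fully separated.

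Phosphate, pyrimidine nucleotides, NAD and CoA are moved by a further 7 tested carriers, of which 3 were increased and none was decreased, with a median log2 change of 0.52. SLC25A33 (PNC1), which brings pyrimidine nucleotides into the matrix and is tied to growth signaling and mitochondrial DNA content, rose from 935, 914 and 828 to 1666, 1686 and 1699 reads. The change was 0.92 on the log2 scale (SE 0.06, limma adjusted p = 3.4e-09), a 1.89-fold increase. SLC25A36 (PNC2), the second pyrimidine nucleotide carrier, rose from 784, 757 and 711 to 1259, 1430 and 1433 reads, by 0.87 on the log2 scale (SE 0.07, limma adjusted p = 2.8e-08). For both genes the lowest THZ531 library lay well above the highest DMSO library. Their ratio overlapped between the groups, with SLC25A33 at 1.19, 1.21 and 1.16 times SLC25A36 in DMSO and at 1.32, 1.18 and 1.18 times in THZ531 (difference of 0.05 on the log2 scale, p = 0.7, two-sided exact permutation test).

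Both printed promoters hold the CRE and the E-box palindromes. In SLC25A33 the CRE lies 49 bases and the E-box 26 bases before the start; in SLC25A36 the order is inverted, with the CRE at 117 and the E-box at 143 bases. Of 34961 RefSeq promoters of the same length, 1.85% hold TGACGTCA, 7.27% hold CACGTG and 57 promoters (0.163%) hold both. Among the 50 promoter entries of the 40 carriers that could be matched, 3 hold the CRE, 9 the E-box and 2 both, namely these. Searched on both strands like these, the core of ETS factor sites, CCGGAAG, was in 11 of the 50 carrier promoters and in 10.3% of all promoters. The core of sites for Sp1, GGGCGG, was in 33 of 50 and in 45% of all. The core promoter element TATAAA was in 4 of 50 and in 11.5% of all. No motif searched contains another, and a match describes letters in a window and no binding. The motifs were chosen after the expression values had been seen.

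SLC25A3, the phosphate carrier that feeds ATP synthesis, had the most reads of the family, with 27764, 25644 and 24573 in DMSO and 40384, 38406 and 39203 in THZ531. It rose by 0.60 on the log2 scale (SE 0.04, limma adjusted p = 2.7e-09), a 1.51-fold change just inside the threshold. The groups lay far apart, but the call did not hold in 6 of the alternative fits, namely the other 3 scalings, edgeR on recovered reads and leaving out either DMSO replicate 3 or THZ531 replicate 1. SLC25A51, the NAD carrier, changed by 0.52 (1885 ± 64.6 to 2713 ± 157 reads, SD, n = 3), just outside it at 1.44-fold. Its near-identical copy SLC25A52 had at most 1.59 reads, and how reads matching both were assigned is not given in the sources used here. The CoA carriers SLC25A16 and SLC25A42 had log2 changes of 0.03 and -0.10 with overlapping groups, and the peroxisomal carrier SLC25A17 one of -0.42.

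**Figure D2:**
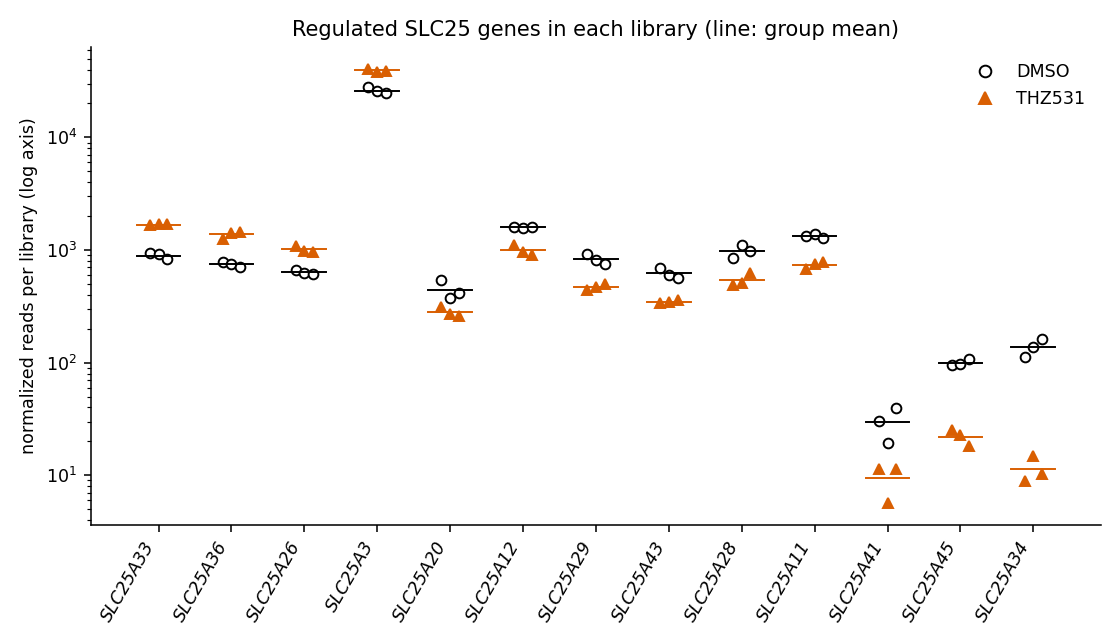
Normalized reads of 13 of the 14 called SLC25 genes in each of the 6 libraries on a log axis, with open circles for DMSO, triangles for THZ531 and lines for the group means. In all 13 genes the 3 triangles lie on one side of the 3 circles, from the 1.51-fold increase of SLC25A3 to SLC25A34, which is near 11.3 reads in THZ531 against 137 in DMSO.

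Di- and tricarboxylates and acylcarnitine have 5 tested carriers, among which no increase and 2 decreases were called, and the median log2 change was -0.65. SLC25A11, the 2-oxoglutarate/malate carrier of the malate-aspartate shuttle, fell from 1331, 1382 and 1282 to 683, 755 and 776 reads, or by 0.85 on the log2 scale (SE 0.07, limma adjusted p = 2.6e-08). SLC25A20, which exchanges acylcarnitine for carnitine and so admits long-chain fatty acids to oxidation, fell from 546, 378 and 412 to 310, 269 and 261 reads. Its log2 change of -0.65 (SE 0.14, limma adjusted p = 4.6e-04) includes DMSO replicate 1, the highest of the 3 DMSO values, and without that library it was not called. The citrate carrier SLC25A1, which supplies acetyl groups for lipid synthesis, had higher values in THZ531 (3577 ± 130 against 4668 ± 66.5 reads, SD, n = 3) with a log2 change of 0.38 under the threshold. The dicarboxylate carrier SLC25A10 had a log2 change of -0.25. SLC25A21 was too low for a statement, with 23.0, 12.1 and 14.4 reads in DMSO and 22.7, 1.14 and 17.1 in THZ531.

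For amino acids, no increase and 2 decreases were called among the 7 tested carriers, with a median log2 change of -0.23. SLC25A12 (aralar) exchanges aspartate for glutamate in the same shuttle as SLC25A11, and it fell from 1585, 1583 and 1611 to 1101, 964 and 911 reads (log2 change -0.69, SE 0.07, limma adjusted p = 3.1e-07). Its paralog SLC25A13 (citrin), the more abundant of the pair, went from 3843 ± 213 to 2959 ± 167 reads (SD, n = 3), a change of -0.38 below the threshold. The ratio of SLC25A12 to SLC25A13 overlapped between the groups (0.389, 0.418 and 0.440 against 0.398, 0.314 and 0.300, exact permutation p = 0.2). SLC25A29, a carrier of basic amino acids, fell from 918, 810 and 745 to 442, 469 and 499 reads, by 0.80 on the log2 scale (SE 0.09, limma adjusted p = 1.1e-06). A further 3 carriers had higher values in THZ531 that stayed under the fold threshold: the glutamate carrier SLC25A22 (log2 change 0.40), the glycine carrier SLC25A38 needed for heme synthesis (0.29) and the branched-chain amino acid carrier SLC25A44 (0.29). The ornithine carrier SLC25A15 of the urea cycle changed by -0.23. Its relative SLC25A2 was listed at 0, and the second glutamate carrier SLC25A18 had at most 6.82 reads.

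A further locus without a symbol lies inside SLC25A12, and it rose while the gene fell. It spans chr2:171851855-171854663 (hg38, 2809 bases) and had 9.53, 20.4 and 7.98 reads in DMSO and 349, 462 and 322 in THZ531. The log2 change was 4.89 (SE 0.31, limma adjusted p = 9.5e-10), and the lowest THZ531 value was far above the highest DMSO value. Set against the reads of SLC25A12 in the same library, the locus had 0.795% ± 0.431 in DMSO and 38.3% ± 8.49 in THZ531 (SD, n = 3; two-sided exact permutation p = 0.1, the smallest possible). In the GENCODE v44 canonical transcript of SLC25A12, which has 18 exons on the minus strand, the locus lies wholly in intron 4 (chr2:171844509-171855833, 11325 bases) and covers its bases 1171 to 3979. That intron holds AATAAA 11 times on the strand of the gene, of which 2 precede the locus and 3 are in it. The last of the 3, at intron bases 3739 to 3744, is the one printed with 40 bases on either side, close to the far end of the locus. The count of AATAAA was not set against other introns, and use of these sites was not tested. The strand of the locus is not given in the deposited table, and another annotated SLC25A12 transcript has an exon within it.

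**Figure D3:**
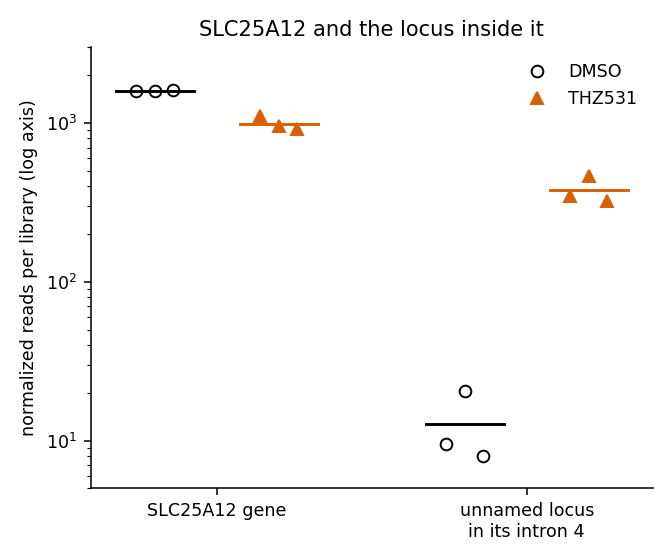
Normalized reads of SLC25A12 and of the unnamed locus in its intron 4 in each library, on a log axis, with lines for the means of 3 libraries. The gene goes from a mean of 1593 to 992 reads while the locus goes from 12.6 to 377.

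In all, 31 unnamed loci lay inside the spans of members and 11 passed the minimum, of which 3 were increased and 1 was decreased. Some of these spans reach far beyond the gene model. Without members whose locus exceeds 2 times the length of the model, 15 loci remained and 9 were tested, with 2 increased and 1 decreased. The increase so left out lies in the span of SLC25A28 but outside its canonical transcript. All tested loci in the span of SLC25A51, which is 1.62 times its gene model, remained in this count. They also lie outside the canonical transcript of that gene, and none of them was called. Among all tested loci without a symbol 31.1% were increased and 25.3% decreased. Besides the locus in SLC25A12, 1 other called locus had a mean of at least 50 reads over all 6 libraries. It lies in intron 5 of SLC25A33 (chr1:9575777-9577495) and had 54.0, 116 and 63.8 reads in DMSO and 88.2, 125 and 130 in THZ531. These groups overlap, the log2 change of 0.61 had a limma adjusted p of 0.060, and it was not called without DMSO replicate 1 (0.38), DMSO replicate 3 (0.50), THZ531 replicate 2 (0.53) or THZ531 replicate 3 (0.50). As a share of SLC25A33 the locus had 8.72% ± 3.57 in DMSO and 6.78% ± 1.30 in THZ531 (SD, n = 3). The single decreased locus, named after its values were seen, lies over an exon of SLC25A25 (chr9:128107871-128109036) and within the span of SLC25A25-AS1. It had 47.6, 62.2 and 55.9 reads in DMSO and 27.7, 31.8 and 17.1 in THZ531, a log2 change of -1.12 (limma adjusted p = 0.0066) without overlap.

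Cofactors, iron and glutathione enter through 7 tested carriers, of which 1 was increased and 2 were decreased, with a median log2 change of -0.36. SLC25A26 imports S-adenosylmethionine, the methyl donor for mitochondrial RNA and protein, and it rose from 671, 626 and 615 to 1086, 987 and 969 reads (log2 change 0.67, SE 0.08, limma adjusted p = 9.7e-07). The end of its locus overlaps that of LRIG1 on the other strand, which also had more reads in THZ531 (863 to 1488). Mitoferrin 2, encoded by SLC25A28, delivers iron for heme and iron-sulfur clusters and fell from 854, 1102 and 987 to 494, 514 and 629 reads (log2 change -0.85, SE 0.11, limma adjusted p = 2.7e-06). Mitoferrin 1, SLC25A37, was more abundant and went from 4595 ± 108 to 3149 ± 137 reads (SD, n = 3), a log2 change of -0.55 that lay just outside the fold threshold. The loci counted for SLC25A26, SLC25A28 and SLC25A37 span 1.61, 4.91 and 2.13 times the length of their gene models.

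SLC25A39, which is needed for glutathione import into mitochondria, was the third gene of the family by reads and had 13386, 13045 and 12454 in DMSO and 16022, 16198 and 16387 in THZ531 (log2 change 0.32). Its paralog SLC25A40 went from 396 ± 38.8 to 308 ± 16.4 reads (SD, n = 3; log2 change -0.36). The ratio of SLC25A39 to SLC25A40 was 33.0, 36.9 and 29.0 in DMSO and 49.9, 55.9 and 52.2 in THZ531. These ratios did not overlap, at the smallest possible exact permutation p of 0.1 (0.233 adjusted over the 7 pairs). The folate and FAD carrier SLC25A32 had a log2 change of -0.12 with overlapping groups, and of -0.073 without DMSO replicate 3 and -0.18 without DMSO replicate 1.

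None of the 3 relatives of the uncoupling proteins was called. SLC25A30 (UCP6) lay just outside the threshold at 1.46-fold (508 ± 51.2 to 742 ± 28.7 reads, SD, n = 3), SLC25A14 (UCP5) had a log2 change of 0.07 and SLC25A27 (UCP4) one of -0.41. Among the 6 tested carriers whose substrate is not agreed on, 3 were decreased and none was increased, with a median log2 change of -0.68. SLC25A34 had the largest decrease of the family, from 112, 136 and 161 to 8.82, 14.8 and 10.2 reads (log2 change -3.50, SE 0.31, limma adjusted p = 6.1e-08). Its locus in the counting annotation spans 144 times its gene model of 5135 bases and overlaps many named genes, and the exons counted for it are not in the table. SLC25A45 fell from 94.5, 96.5 and 108 to 25.2, 22.7 and 18.2 reads (log2 change -2.14, SE 0.27, limma adjusted p = 3.8e-06). Its locus spans 1.65 times its gene model. SLC25A43 fell from 691, 602 and 567 to 338, 348 and 358 reads, by 0.83 on the log2 scale (SE 0.10, limma adjusted p = 1.6e-06).

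SLC25A53 had a log2 change of 0.57 and was the gene nearest to the threshold from outside at 1.48-fold, with 110, 90.9 and 79.0 reads in DMSO and 151, 139 and 124 in THZ531. SLC25A35 was outside it in the other direction with a change of -0.52 and overlapping groups. Inside the locus of SLC25A53 lie ZCCHC18 on the other strand (32.4 to 35.1 reads) and LOC286437 (275 to 147 reads). The locus of SLC25A35 holds RANGRF on the other strand (628 to 897 reads). As for SLC25A25, reads of these loci may not be fully separated. SLC25A46, an outer membrane member that acts in mitochondrial shape rather than as a known carrier, changed by -0.40. SLC25A47 and SLC25A48 stayed under the minimum with at most 1.59 and 4.76 reads.

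All 48 genes together had 0.179% ± 0.0094 of the reads in DMSO and 0.185% ± 0.0023 in THZ531 (SD, n = 3; two-sided exact permutation p = 0.5). SLC25A3, SLC25A5 and SLC25A39 made up 60.7%, 59.7% and 58.7% of these reads in DMSO and 68.4%, 68.0% and 68.1% in THZ531. The ranges did not overlap, at an exact permutation p of 0.1, the smallest possible with 3 against 3. This share does not depend on the scaling of the libraries. SLC25A3 alone made up 26.6%, 25.6% and 25.5% in DMSO and 32.7%, 31.9% and 31.8% in THZ531. SLC25A5 had 21.4%, 21.0% and 20.2% in DMSO and 22.7%, 22.6% and 23.0% in THZ531. For SLC25A39 the ranges overlapped, with 12.8%, 13.0% and 12.9% in DMSO and 13.0%, 13.5% and 13.3% in THZ531. Per kilobase of the canonical mRNA, the level in DMSO was highest for SLC25A5 (16031 reads per kilobase), followed by SLC25A39 (8198), SLC25A3 (4344) and SLC25A1 (2310). The canonical SLC25A3 mRNA is long (5984 bases), and per kilobase of coding sequence SLC25A3 (24001) and SLC25A5 (23437) came first, with SLC25A39 at 12035.

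**Figure D4:**
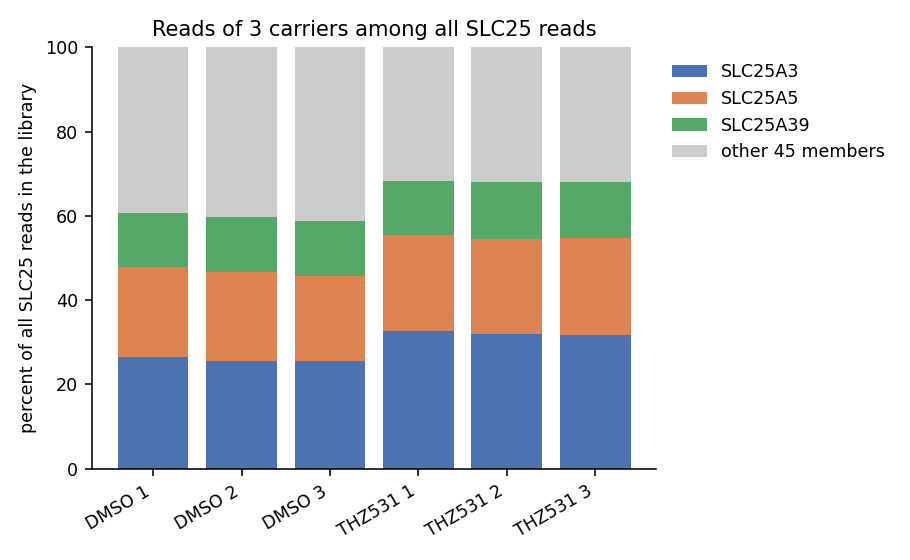
Percent of all SLC25 reads in each library that came from SLC25A3, SLC25A5, SLC25A39 and the other 45 genes (stacked bars, 3 DMSO and 3 THZ531 libraries). The 3 named genes together reach 58.7% to 60.7% in DMSO and 68.0% to 68.4% in THZ531.

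Gene structure was set against the changes as a description. Across the 41 genes the Spearman rho between the length of the GENCODE gene and the log2 change was 0.06 (0.00 without SLC25A34), and over 14597 tested genes with a model it was -0.06. These points share the 6 libraries and are not independent. The median span of the canonical transcript was 12624 bases for the 10 decreased genes, 42435 for the 4 increased and 25058 for the 27 others.

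Genes that surround the carriers were described from 3 further lists, of which 43 genes were tested, with 4 increases, 6 decreases and a median log2 change of 0.03. The called share was 23.3%, below the 39.5% of all tested loci and the 37% of loci with a symbol. Of the 4 tested family members that carry other symbols, MTCH1 of the outer membrane rose from 6670 ± 136 to 10240 ± 228 reads (SD, n = 3; log2 change 0.62). UCP3 fell from 12.7, 14.8 and 26.3 to 5.04, 0 and 2.28 reads and passed the minimum only through the DMSO libraries. In the import path of the carriers 16 genes were tested, of which 2 were increased and 3 decreased (31.25% called). The small intermembrane space chaperone TIMM9 fell from 1159 ± 29.7 to 423 ± 39.7 reads (log2 change -1.46, limma adjusted p = 3.8e-10) and its partner TIMM10 from 2405 ± 23.4 to 1418 ± 93.7 (-0.76). TIMM22, the channel that inserts carriers into the inner membrane, fell from 2084 ± 47.2 to 1093 ± 94.7 reads (-0.93). The TOM receptor TOMM20 rose from 17919 ± 421 to 28920 ± 924 reads (0.69) and the small TOM subunit TOMM5 from 15853 ± 214 to 24144 ± 922 (0.61). Among 23 tested genes of other transport across mitochondrial membranes, LETM1 of the inner membrane rose from 1160 ± 87.5 to 1944 ± 37.4 reads (0.75), whereas its relative LETM2 (-0.81) and the sideroflexin SFXN5 (-1.01) fell. MTCH1, TOMM20, TOMM5 and LETM1 were not called as increased when libraries were scaled to the same total or to RPL34.

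**Figure D5:**
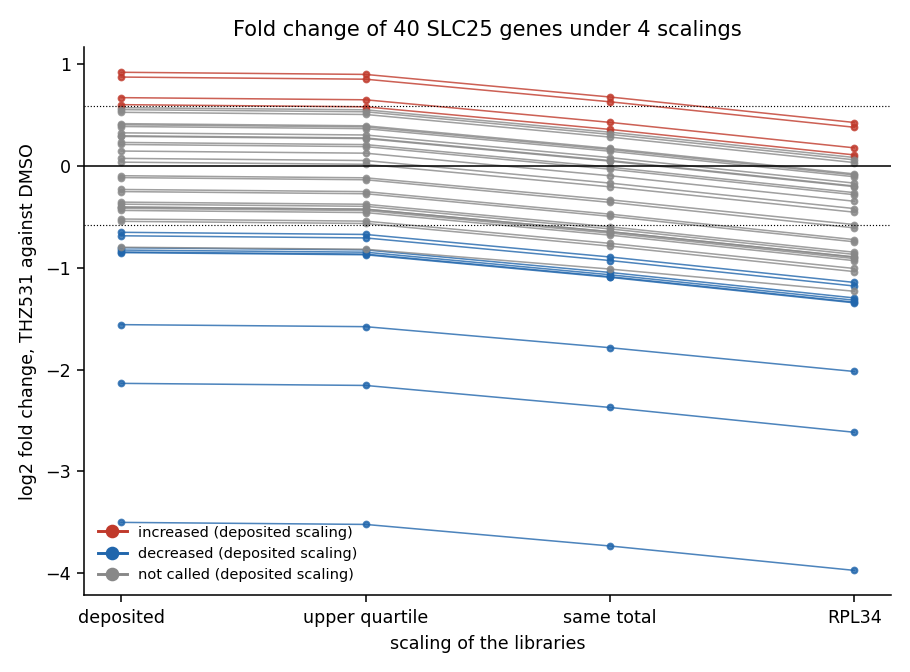
Log2 fold change of 40 of the 41 tested SLC25 genes under the deposited scaling, the upper quartile, the same total of reads and RPL34; each line is 1 gene, colored by its call under the deposited scaling, and dotted lines mark a fold change of 1.5. The lines run nearly parallel and shift down by 0.49 in the median of all loci from the deposited scaling to RPL34, where no red line stays above the upper dotted line and all 9 blue lines stay below the lower one.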

How the data were processed

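Poly(A) RNA of OVCAR3 cells given DMSO or 200 nM THZ531 for 6 h was sequenced in 3 libraries each, which the design text calls biological repeats. The authors mapped reads to hg38 with STAR (2.7.5a in the submitters' processing notes), counted them with featureCounts on FAST DB genes and deposited a signal normalized with DESeq2, which is read counts divided by 1 size factor per library. Values are not corrected for gene length. All values above 0 were whole multiples of 1 read within 0.01, so reads were recovered (53054048 to 70986130 per library). Handling of multi-mapped reads is not given in the sources used here.

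In R 4.3.3, limma 3.58.1 with a variance trend and no covariate was fitted to log2(value + 1) of the 17568 loci at 10 or more in at least 3 libraries, with Benjamini-Hochberg adjustment. Calls needed a fold change of 1.5 and an unadjusted p of at most 0.05. Fold changes are on this scale, where those of low genes depend on the pseudocount. edgeR 4.0.16 (quasi-likelihood) and DESeq2 1.42.0 were run on the recovered reads. On simulated counts for THZ531 against DMSO with mixed fold sizes (17253 genes), limma called 183 of 196 changed and 243 of 17057 unchanged genes. Few genes were changed there, in both directions and all by more than 1.5-fold. The simulation could therefore not show errors of the scaling or of calls close to the threshold. Single ratios and shares were compared with two-sided exact permutation tests (scipy 1.17.1).

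The members, role groups, other lists and tests were chosen with earlier results of these data known. Every member enters the counts, and 1 member is not reported here by name. The others past both thresholds, or within 0.1 on the log2 scale of the fold threshold, are named with values, as are SLC25A3, SLC25A4, SLC25A5 and SLC25A6. Genes of the other lists past both thresholds are named, as are unnamed loci inside members past both with a mean over the 6 libraries of at least 50 reads. The related pairs and promoter motifs were chosen after their values were seen. Gene models are from GENCODE v44 on hg38, and promoters from RefSeq on GRCh38.p14.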

Additional observations from a re-analysis of the deposited data

How the results depend on the processing

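Of the 14 called carriers, 9 kept their call at the same thresholds in each alternative fit that tested them (among them SLC25A11, SLC25A12, SLC25A28, SLC25A29, SLC25A34, SLC25A41, SLC25A43 and SLC25A45). A minimum of 50 left 38 carriers to test, with 4 increased and 9 decreased, and SLC25A41 was not among them. SLC25A34 and SLC25A45 passed this minimum only through the DMSO libraries, so their decreases in that fit are no further check. With the same total of reads per library, 2 carriers were increased and 18 decreased, 0 genes of the other transport lists were increased, and the carriers' median log2 change was -0.48. Scaled to RPL34, 0 carriers were increased and 21 decreased, 0 of the other genes were increased and 19 decreased, and the median was -0.73. At a fold change of at least 2, 0 carriers were increased and 4 decreased, against 0 and 3 of the other genes. Under RPL34 the log2 change turned negative for SLC25A1 (-0.11), SLC25A14 (-0.42), SLC25A16 (-0.46), SLC25A22 (-0.0911), SLC25A23 (-0.35), SLC25A25 (-0.28), SLC25A38 (-0.20), SLC25A39 (-0.171), SLC25A4 (-0.26), SLC25A44 (-0.21) and SLC25A5 (-0.0804). With the same total it turned negative for SLC25A14 (-0.1705), SLC25A16 (-0.21), SLC25A23 (-0.10), SLC25A25 (-0.0343) and SLC25A4 (-0.0142). These reversals follow from the shift that each scaling applies to all genes.

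With 1 library left out at a time, 3 to 5 carriers were increased and 10 decreased in each fit, and the carriers' median ranged from -0.25 to -0.0873, the latter without THZ531 replicate 2. SLC25A16 ranged from -0.10 without DMSO replicate 1 to 0.11 without THZ531 replicate 3 and was at -0.079 without THZ531 replicate 1, SLC25A42 ranged from -0.25 to 0.15, the latter without DMSO replicate 1, and SLC25A21 from -1.44 to 0.29, the latter without THZ531 replicate 2; the cause was not tested. SLC25A20 was not called without DMSO replicate 1, nor TOMM5 without THZ531 replicate 1. SLC25A35 was called as decreased without DMSO replicate 1, and called as increased were SLC25A30 without DMSO replicate 2 and SLC25A53 without DMSO replicate 1 or THZ531 replicate 3. In the other lists 3 to 5 genes were increased and 5 to 7 decreased, and UCP3 was under the minimum without any 1 of the DMSO libraries.

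Replicates with the same number did not deviate together (correlations of 0.0017, 0.019 and -0.039 across loci), so that the numbers were not taken as pairs. With the replicate number as a block, 4 carriers were increased and 10 decreased, as without it. Precision is limited by 3 libraries per group and, for SLC25A21, SLC25A41 and SLC25A42, by fewer than 60 reads in each library.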

Other observations

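The CRE and E-box palindromes together also occur in promoters of 44 tested genes outside the SLC25 family. Of these genes, 15 were increased and 3 were decreased by the thresholds used for the carriers. The same thresholds called 15.7% and 23.9% of all tested loci, and 13.3% and 23.7% of those with a symbol. The median log2 change of the 44 genes was 0.38, where that of all tested loci was -0.01. These calls are relative to the deposited scaling and were not recomputed under the others. The motifs were looked for after the values of SLC25A33 and SLC25A36 had been seen. Genes with either palindrome alone were not compared, and a part of the motifs in these changes was not tested.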
